A study of Mus musculus with 6 samples.

Results

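The striated muscle myosin light chains and their kinases were examined in brown adipose tissue (BAT) as a set of 8 genes, 6 light chains (*Mylpf*, *Myl2*, *Myl1*, *Myl3*, *Myl4* and *Myl6b*) and 2 kinases (*Mylk2* and *Mylk4*). They were picked by gene symbol out of 47729 annotated genes, with their difference between the diets already known. That difference is therefore described below without a test of the set. All 8 were detected, and all 8 passed the filter on low counts, as did 17668 genes in all. The tissue was interscapular BAT of wild type male C57BL/6J mice that entered the study at 6 weeks of age and ended it at 10 weeks, after 4 weeks on a diet. The low-fat diet (LFD) group ate a standard rodent diet and the high-fat diet (HFD) group a diet labelled as 45% high-fat, with 3 mice sequenced per group. The study took from each group the mice of greatest, medium and least fat mass, and no source used here says which replicate is which.

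Myosin pulls on actin with a heavy chain whose neck is wrapped by a regulatory and an essential light chain. In striated muscle these small subunits come in isoforms for fast fibres, slow fibres and heart, and the mix follows the fibre type. When calcium enters the cytosol, calmodulin switches on a light chain kinase, which phosphorylates the regulatory chain and raises the force of contraction. BAT consists mainly of brown adipocytes, which share a developmental lineage with muscle but build no sarcomeres, and it lies against skeletal muscle of the back.

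All libraries held a similar number of counts, from 17156991 to 21603487 per mouse, but the precision for a gene in a mouse follows its own counts there. Levels between genes are compared in transcripts per 1000000 (TPM), which correct for gene length, and a log2 fold change is HFD over LFD, so that negative values stand for less RNA in HFD-fed mice. *Ucp1*, the uncoupling protein that defines brown adipocytes, was present in all mice, at 796 to 4021 TPM in HFD-fed mice and at 443, 11.0 and 76.0 TPM in LFD replicates 1, 2 and 3. Mitochondrially encoded genes held 8.50% to 22.7% of the counts in HFD-fed and 3.87% to 13.8% in LFD-fed mice. In bulk tissue, fewer cells of a type and less RNA per cell cannot be told apart.

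The sequence upstream of the transcription start is shown for *Mylpf*, the member with the highest TPM in every LFD-fed mouse, for *Mylk4*, a kinase that differed strongly between the diets, and for *Myl6b*, the member that differed least. The windows are the 250 bases before the RefSeq start on GRCm38.p6, at chr7:127211358-127211607 on the plus strand for *Mylpf*, chr13:32783965-32784214 on the minus strand for *Mylk4* and chr10:128498686-128498935 on the minus strand for *Myl6b*. Capitals mark matches to an E-box (CANNTG, bound by myogenic factors such as MyoD), to the MEF2 site, to the CArG box of serum response factor, to TATAAA or to the MCAT element CATTCC, searched on both strands.
*Mylpf*: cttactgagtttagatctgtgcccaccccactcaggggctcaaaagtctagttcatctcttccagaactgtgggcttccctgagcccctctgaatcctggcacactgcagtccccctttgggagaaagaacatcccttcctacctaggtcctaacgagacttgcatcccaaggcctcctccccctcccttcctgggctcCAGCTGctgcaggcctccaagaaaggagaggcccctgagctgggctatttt
*Mylk4*: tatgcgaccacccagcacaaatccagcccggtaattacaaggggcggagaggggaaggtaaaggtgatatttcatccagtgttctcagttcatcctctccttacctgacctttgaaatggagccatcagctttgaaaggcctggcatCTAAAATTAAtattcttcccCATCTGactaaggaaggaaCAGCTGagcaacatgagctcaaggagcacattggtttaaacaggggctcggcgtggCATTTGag
*Myl6b*: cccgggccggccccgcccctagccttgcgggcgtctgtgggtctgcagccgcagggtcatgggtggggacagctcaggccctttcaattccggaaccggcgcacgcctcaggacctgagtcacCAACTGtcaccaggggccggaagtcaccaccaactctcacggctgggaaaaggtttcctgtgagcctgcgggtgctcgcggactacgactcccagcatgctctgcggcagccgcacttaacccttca
The *Mylpf* window held a single match, the E-box CAGCTG. *Myl6b* likewise held a single match, the E-box CAACTG, in a window of 66.0% G and C. The *Mylk4* window held the MEF2 match CTAAAATTAA and 3 E-boxes, with no overlap between them. An E-box is common, however, and was found in 66.2% of 32851 windows of the same length. A window was at hand for 7 members, of which 6 had an E-box. The MEF2 site was rarer, in 2.92% of all windows, and *Mylk4* was the member that had it. The CArG box was present in 1.47% of all windows, and among the members in *Myl3*, as CCTTTTATGG. TATAAA was found in 12.4% and CATTCC in 12.6% of all windows, and 2 members had each. Both windows of *Myl2* lay upstream of the GENCODE start of that gene, by 8227 and 7762 bases. Those of *Mylpf*, *Myl3* and *Myl1* lay downstream of the outermost GENCODE start of their gene, furthest for *Myl3*. The *Myl3* and *Myl1* windows had 32 and 87 of their bases in an exon of the gene. These matches are letters in a window and say nothing about binding.

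The regulatory light chains were described first. *Mylpf* (ENSMUSG00000030672, chromosome 7 from 127208890 to 127214298 on GRCm38) encodes the fast skeletal isoform. It had 823, 1784 and 279 TPM in LFD replicates 1, 2 and 3, and 6.89, 23.0 and 3.06 TPM in HFD replicates 1, 2 and 3. Each LFD-fed mouse was far above each HFD-fed mouse, and LFD replicate 2 was the highest of all. Its log2 fold change was -6.46 (standard error 1.20), an 87.8-fold lower level in the fitted counts of HFD-fed mice, and ranged from -7.39 without HFD replicate 2 to -5.91 without LFD replicate 2. By the mean over LFD-fed mice, *Mylpf* ranked 78th of all genes in TPM, whereas in HFD-fed mice it ranked 7340th.

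*Myl2* (ENSMUSG00000013936, chromosome 5 from 122100951 to 122113472) encodes the regulatory chain of slow fibres and of the heart ventricle. LFD replicates 1, 2 and 3 held 2.67, 242 and 72.3 TPM, and HFD replicates 1, 2 and 3 held 0.12, 1.34 and 0 TPM. The diets did not overlap, yet LFD replicate 1 lay close to the HFD-fed mice and far from the other LFD-fed mice. The HFD values rested on 1, 8 and 0 counts, against 15, 1317 and 340 in LFD-fed mice. The log2 fold change was -7.46 with a standard error of 1.78, the widest of the set, and ranged from -9.72 without HFD replicate 2 to -5.85 without LFD replicate 2.

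*Myl1* (ENSMUSG00000061816, chromosome 1 from 66924295 to 66945404) encodes the essential chain of fast fibres. LFD replicates 1, 2 and 3 had 425, 1187 and 155 TPM, and HFD replicates 1, 2 and 3 had 40.6, 41.9 and 10.5 TPM. The gene kept the highest level of all members in HFD-fed mice, with 122 to 580 counts. Its log2 fold change of -3.95 (standard error 0.98) was smaller than that of *Mylpf*, its fast-fibre partner, and ranged from -4.53 without HFD replicate 1 to -3.30 without LFD replicate 2.

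*Myl3* (ENSMUSG00000059741, chromosome 9 from 110741861 to 110769798) is the essential chain that goes with *Myl2* in slow fibres and ventricle. It had 2.94, 49.7 and 15.2 TPM in LFD replicates 1, 2 and 3, and 0.26, 0.31 and 0.19 TPM in HFD replicates 1, 2 and 3, from 3 to 5 counts per mouse. As for *Myl2*, LFD replicate 1 was the lowest LFD-fed mouse. The log2 fold change was -5.79 (standard error 1.05) with all mice and -4.46 without LFD replicate 2.

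*Myl4* (ENSMUSG00000061086, chromosome 11 from 104550663 to 104595753) is the essential chain of atrial and embryonic muscle. It had 5.71, 47.8 and 5.49 TPM in LFD replicates 1, 2 and 3, and 3.00, 1.04 and 0.72 TPM in HFD replicates 1, 2 and 3. The groups did not overlap, but LFD replicates 1 and 3 stood close to HFD replicate 1. In log2 CPM the gap was small, with 1.29 in LFD replicate 3 and 1.28 in HFD replicate 1. The log2 fold change was -3.04 (standard error 1.07) with all mice and -1.47 without LFD replicate 2.

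*Myl6b* (ENSMUSG00000039824, chromosome 10 from 128494157 to 128498685) encodes an essential chain of slow muscle and of non-muscle cells. It had 4.26, 7.09 and 1.76 TPM in LFD replicates 1, 2 and 3, and 1.87, 3.02 and 1.27 TPM in HFD replicates 1, 2 and 3. It was the member whose groups overlapped, since LFD replicate 3 lay below HFD replicates 1 and 2. The log2 fold change was -0.92 with a standard error of 0.67.

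The kinases were below *Mylpf* and *Myl1* in TPM in every mouse, and above *Myl6b* in every LFD-fed mouse. *Mylk2* (ENSMUSG00000027470, chromosome 2 from 152911352 to 152923068), the skeletal muscle light chain kinase, had 12.6, 35.5 and 4.02 TPM in LFD replicates 1, 2 and 3. In HFD replicates 1, 2 and 3 it had 0.14, 0.63 and 0.02 TPM, from 9, 29 and 1 counts. Every HFD-fed mouse lay below every LFD-fed mouse. The log2 fold change between the groups was -5.89 (standard error 1.24) and ranged from -7.16 without HFD replicate 2 to -5.21 without LFD replicate 2. *Mylk4* (ENSMUSG00000044951, chromosome 13 from 32700834 to 32783954), a kinase of the same family found in striated muscle, had 11.4, 53.2 and 2.96 TPM in LFD replicates 1, 2 and 3. HFD replicates 1, 2 and 3 held 0.29, 0.23 and 0.12 TPM of it, from 11 to 16 counts, and the log2 fold change was -5.74 (standard error 1.06) with all mice and -4.62 without LFD replicate 2. RSEM's mean transcript length for *Mylk4*, weighted by abundance, was 2582, 3517 and 5641 bases in HFD replicates 1, 2 and 3 and 2259, 2182 and 2699 bases in LFD replicates 1, 2 and 3, so that the few HFD counts were assigned in 2 of the mice to longer transcripts than in any LFD-fed mouse.

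**Figure D1:**
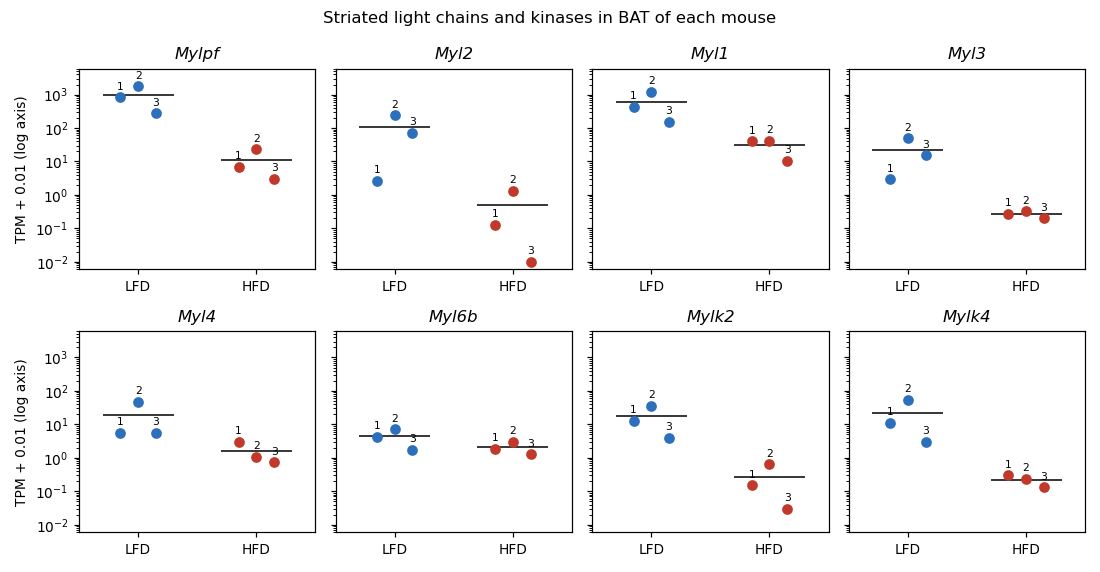
TPM of each member in each mouse on a log axis after adding 0.01, with LFD-fed mice in blue, HFD-fed mice in red, the replicate number above each point and a line at the group mean. The groups are apart for 7 members, all lower in HFD-fed mice, where 11.6% of all tested genes lie fully below in TPM. The groups overlap for *Myl6b*, and LFD replicate 2 is the highest mouse for all 8.

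In the fit over all 17668 tested genes, all 8 members had a negative log2 fold change, with a median of -5.77, beside a median of -0.05 over all tested genes. The groups did not overlap in log2 counts per 1000000 (log2 CPM) for 7 of the 8, all lower in HFD-fed mice, where 9.23% of all tested genes lay fully below. With size factors computed by the RLE method in place of TMM the count was 6, since *Myl4* then overlapped. A gene was called where its adjusted p was below 0.01 and its fold change beyond 1.5 on the log2 scale. The quasi-likelihood test of edgeR called 0 members lower, as it called 0.0% of all tested genes, and gave the members adjusted p-values from 0.173 to 0.728. At an unadjusted p under 0.05 there were 7 members, all but *Myl6b*, against 6.62% of all tested genes in the same direction. DESeq2, the tool of the study, called 6 members lower and 1.53% of the 19965 genes to which it gave an adjusted p. *Myl4*, with a DESeq2 adjusted p of 0.0460, and *Myl6b*, with 0.746, were not called. As the members were chosen with this contrast known, these counts describe the set and support nothing.

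The mix of light chain isoforms differed among LFD-fed mice. As a share of the summed TPM of *Mylpf* and *Myl2*, the slow chain *Myl2* made up 0.323%, 12.0% and 20.6% in LFD replicates 1, 2 and 3. In counts, its share was 0.273% in LFD replicate 1 (exact 95% binomial interval 0.153% to 0.450%), 11.2% in LFD replicate 2 (10.6% to 11.7%) and 20.1% in LFD replicate 3 (18.2% to 22.1%). The 3 intervals were far apart, and they cover counting error only. In HFD replicate 2 it was 8 of 150 counts (5.33%, interval 2.33% to 10.2%). HFD replicate 1 had 1 of 55 counts (1.82%, interval 0.0460% to 9.72%). HFD replicate 3 had 0 of 13 counts, which allows a share of up to 23.1% by the limit of 3 counts, while the exact interval reached 24.7%. The share of the slow isoform was therefore not determined well enough in HFD replicate 3 to be set against any LFD-fed mouse.

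The slow essential chain followed the same order among LFD-fed mice. *Myl3* made up 0.671%, 3.85% and 8.57% of the summed TPM of the striated essential chains in LFD replicates 1, 2 and 3, and 0.569%, 0.670% and 1.49% in HFD replicates 1, 2 and 3. *Myl1* remained the main essential chain in every mouse, from 82.9% to 97.1%. *Myl6b* took 0.549% to 0.992% in LFD-fed mice and 4.09%, 6.53% and 9.98% in HFD replicates 1, 2 and 3, without overlap, while its own level overlapped between the diets. Other slow fibre genes are given beside this. Of 5 tested, 3 (*Tnnt1*, *Tnnc1* and *Myoz2*) were lower in HFD-fed mice at an unadjusted p under 0.05 in edgeR's fit (6.62% of all tested genes). *Tnnt1* overlapped between the diets. In TPM *Tnnc1* overlapped as well, with 0.96 in LFD replicate 1 and 1.33 in HFD replicate 3. The part of these genes in the mix was not tested. The summed TPM of *Tnnt1*, *Tnni1*, *Tnnc1*, *Myoz2*, *Casq2* and *Pln* was 11.4, 414 and 92.9 in LFD replicates 1, 2 and 3, and 3.07 to 9.98 in HFD-fed mice. *Myh7*, the slow heavy chain, had 0.84, 80.3 and 22.3 TPM in LFD replicates 1, 2 and 3.

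**Figure D2:**
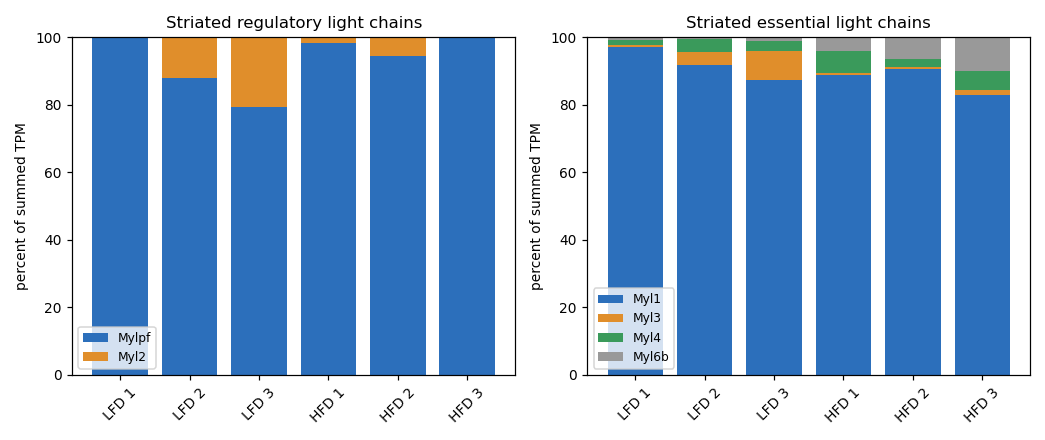
Share of each isoform in the summed TPM of the striated regulatory (left) and essential (right) light chains, in percent, with a stacked bar per mouse. *Myl2* is 12.0% and 20.6% of the regulatory chains in LFD replicates 2 and 3 and 0.323% in LFD replicate 1, and *Myl6b* is a larger part of the essential chains in the HFD-fed mice.

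The balance between essential and regulatory chains also differed between the diets. The summed TPM of the essential chains divided by that of the regulatory chains was 0.531, 0.638 and 0.505 in LFD replicates 1, 2 and 3, and 6.52, 1.90 and 4.16 in HFD replicates 1, 2 and 3. In TPM, regulatory chains were thus ahead in every LFD-fed mouse and essential chains in every HFD-fed mouse. Counts, which are not corrected for length, gave no such order in LFD-fed mice. There the essential chains had 5280, 12269 and 1457 counts and the regulatory chains 5492, 11809 and 1691 in replicates 1, 2 and 3. In HFD replicates 1, 2 and 3 the essential chains had 665, 513 and 154 counts and the regulatory chains 55, 150 and 13. The fast pair *Myl1* and *Mylpf* carried the difference between the diets, with a ratio in TPM of 0.517, 0.666 and 0.556 in LFD replicates 1, 2 and 3 and of 5.89, 1.82 and 3.44 in HFD replicates 1, 2 and 3. The HFD ratios rested on 54, 142 and 13 *Mylpf* counts in replicates 1, 2 and 3, beside 580, 444 and 122 *Myl1* counts. RSEM's mean transcript length for *Mylpf* was 431, 459 and 319 bases in HFD replicates 1, 2 and 3 and 449 to 496 bases in LFD-fed mice. The short length in HFD replicate 3 raises its *Mylpf* TPM, here and in the comparison with muscle markers below. Between the kinases, *Mylk2* made up 40.0% to 57.6% of their summed TPM in LFD-fed mice, and 14.3% to 73.3% in HFD-fed mice on 12 to 42 counts in all, so that no order of the kinases could be read there.

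Genes that mark skeletal muscle moved with the members. Of 18 markers that are not members, 17 were lower at an unadjusted p under 0.05 in edgeR's fit (6.62% of all tested genes). These 17 also lay fully below under HFD (9.23% of all tested genes), and the exception was *Mb*, myoglobin. The median of the 18 markers on the log2 scale was -6.05. Their summed TPM was 96.1, 338 and 19.5 in HFD replicates 1, 2 and 3 and 5200, 12321 and 1756 in LFD replicates 1, 2 and 3. No marker was at 0 in all mice, and *Acta1*, skeletal actin, had 0.68 to 37.9 TPM in HFD-fed and 486 to 2336 TPM in LFD-fed mice. LFD replicate 2 was thus the highest and HFD replicate 3 the lowest mouse both for the markers and for *Mylpf*. *Mb* alone made up 52.3%, 44.9% and 31.7% of that sum in HFD replicates 1, 2 and 3 and 1.83% to 3.64% in LFD-fed mice, so the members were set against the other 17 markers, a choice made after seeing the data. *Mylpf* was then 14.9% to 16.5% of the marker sum in LFD-fed mice and 15.02%, 12.3% and 23.0% in HFD replicates 1, 2 and 3, which overlapped. With *Mb* in the sum it was 14.5% to 15.9% in LFD-fed mice and 7.17%, 6.80% and 15.7% in HFD replicates 1, 2 and 3. *Mylk2* overlapped as well, at 0.238% to 0.296% in LFD-fed and 0.305%, 0.338% and 0.150% in HFD replicates 1, 2 and 3, whereas with *Mb* it was 0.229% to 0.288% in LFD-fed and 0.102% to 0.186% in HFD-fed mice. *Myl1* was 8.33% to 9.90% in LFD-fed and 88.5%, 22.5% and 79.1% in HFD replicates 1, 2 and 3, and *Myl6b* was 0.0591% to 0.104% in LFD-fed and 1.62% to 9.53% in HFD-fed mice. The groups of *Myl1* and *Myl6b* did not overlap with or without *Mb*. Without *Mb*, *Myl4* did not overlap either, at 0.112% to 0.399% in LFD-fed and 0.558% to 6.54% in HFD-fed mice. With *Mb* in the sum *Myl4* overlapped, and *Myl2*, *Myl3* and *Mylk4* overlapped with or without it. The part of the muscle genes in the diet difference of the members was not tested.

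**Figure D3:**
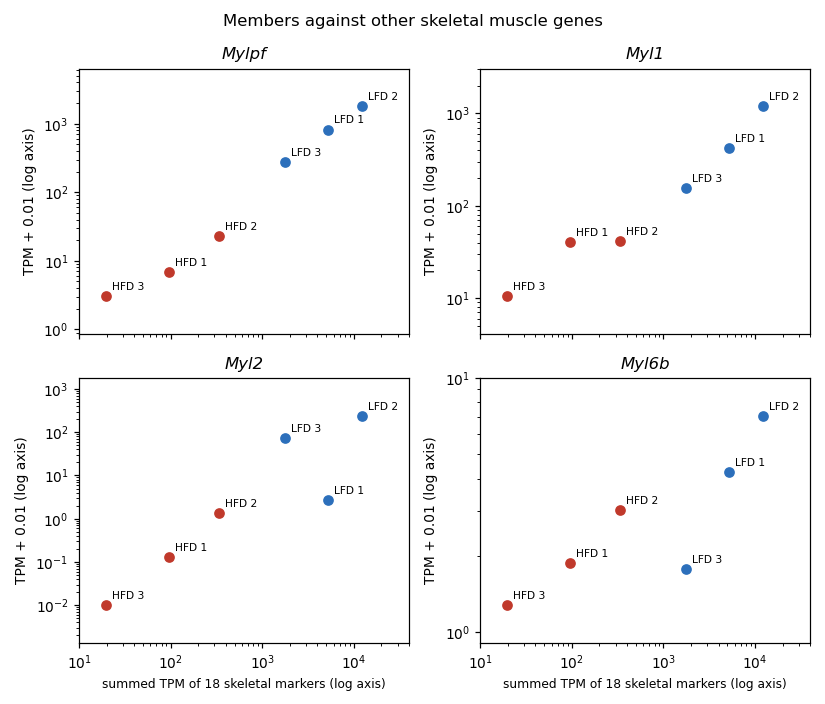
TPM plus 0.01 of *Mylpf*, *Myl1*, *Myl2* and *Myl6b* (vertical log axes, each with its own range) against the summed TPM of 18 skeletal muscle markers (horizontal log axis), with a point per mouse, HFD in red and LFD in blue. *Mylpf* rises with the markers from HFD replicate 3 to LFD replicate 2, *Myl2* drops out of line in LFD replicate 1 at 2.67 TPM, and *Myl6b* spans the narrow range of 1.27 to 7.09 TPM.

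Markers of other cell types are given beside this. The summed TPM of 10 brown adipocyte markers was 2435 to 8336 in HFD-fed and 935 to 4860 in LFD-fed mice, with a median log2 difference of 1.68, 8 positive and 2 negative. The negative ones were *Adipoq* (-1.19) and *Plin1* (-0.78), which brown and white adipocytes share. In edgeR's fit 2 of the 10, *Dio2* and *Prdm16*, were at an unadjusted p under 0.05 and higher in HFD-fed mice (3.86% of all tested genes). *Ucp1* and *Prdm16* lay fully above in HFD-fed mice, as did 6.72% of all tested genes. For 6 immune cell markers the summed TPM was 1326 to 2875 in HFD-fed and 283 to 3064 in LFD-fed mice, of which *Lyz2* was the largest part. Of 4 tested genes, with a median of 1.39, *Adgre1* and *Cd68* were higher at that p, and 3 (*Ptprc*, *Adgre1* and *Cd68*) lay fully above in HFD-fed mice. Of the cardiac markers, *Gata4* and *Nkx2-5* were at 0 counts in every mouse and *Nppa* reached at most 4 counts, while 4 of 9 were tested. Among these, *Actc1* and *Sbk2*, both also expressed in skeletal muscle, were lower at an unadjusted p under 0.05 in edgeR's fit (6.62% of all tested genes). *Sbk2* overlapped between the diets, and *Actc1* had 14, 608 and 26 counts in LFD replicates 1, 2 and 3. The summed TPM of the cardiac list was 2.16 to 6.45 in HFD-fed and 9.12 to 100.2 in LFD-fed mice. The 6 smooth muscle markers had a median log2 fold change of -0.14, and none was at an unadjusted p under 0.05 in edgeR's fit or called by DESeq2. Their summed TPM overlapped, at 61.0 to 173 in HFD-fed and 53.4 to 227 in LFD-fed mice. The part of these cell types in the members' difference was not tested.

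The other genes of the light chain pathway came from lists of the family. The light chains of smooth muscle and non-muscle cells had small differences between the diets. *Myl6*, the essential chain of non-muscle myosin, had 593 to 774 TPM in HFD-fed and 704 to 1118 TPM in LFD-fed mice, which is -0.09 on the log2 scale with a standard error of 0.31. *Myl9*, *Myl12a* and *Myl12b*, regulatory chains of smooth muscle and non-muscle myosin, had log2 fold changes of 0.13, -0.04 and 0.09. *Myl12a* and *Myl12b* are close copies, so their counts can be shared between them. The 4 tested genes of this list overlapped between the diets, and none was called by edgeR or DESeq2 or had an unadjusted p under 0.05. *Myl7* and *Myl10* had at most 1 and 4 counts in a mouse. *Myl6* alone exceeded the sum of all 6 striated light chains in each HFD-fed mouse, where that sum was 15.8 to 70.6 TPM, and in LFD replicate 3, where it was 528 TPM. In LFD replicates 1 and 2 the striated sum was the larger, at 1264 and 3318 TPM.

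The general light chain kinase *Mylk*, which acts in smooth muscle and non-muscle cells, differed by 0.00 on the log2 scale with a standard error of 0.35. *Mylk3*, the cardiac kinase, had 1 to 3 counts per mouse. For the calmodulin genes *Calm2* and *Calm3*, whose protein activates the kinases, the values were 0.19 and -0.17. None of the 7 tested genes of this list, which also holds *Dapk3*, *Rock1* and *Rock2*, was called by edgeR or DESeq2 or had an unadjusted p under 0.05. Myosin phosphatase removes the phosphate from the regulatory chain. Of 7 of its subunits and inhibitors, 2 were lower at an unadjusted p under 0.05 in edgeR's fit (6.62% of all tested genes). *Ppp1r12b*, the targeting subunit found in striated muscle, had 4.92 to 9.45 TPM in HFD-fed and 9.0 to 25.9 TPM in LFD-fed mice, or -1.03 on the log2 scale with a standard error of 0.27 (adjusted p = 0.265, edgeR). *Ppp1r14c*, an inhibitor of the phosphatase, differed by -3.08 on the log2 scale with a standard error of 0.81 (adjusted p = 0.258, edgeR) and was the gene of this list that DESeq2 called. The catalytic subunit *Ppp1cb* had 142 to 181 TPM in HFD-fed and 143 to 169 TPM in LFD-fed mice.

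The partners of the striated light chains in the thick filament went with them. Of 9 striated heavy chain genes, 6 were tested (median on the log2 scale -5.45). Of these, 5 had an unadjusted p under 0.05 in edgeR's fit and were lower in HFD-fed mice (6.62% of all tested genes). The highest was the fast chain *Myh4*, with 267, 973 and 63.2 TPM in LFD replicates 1, 2 and 3 and 4.12, 10.6 and 0.06 TPM in HFD replicates 1, 2 and 3. *Myh3*, the embryonic heavy chain, did not pass the filter, with 2609 counts in LFD replicate 2, 95 in LFD replicate 3 and 0 or 1 in the other mice. Of 5 myosin binding protein genes, *Mybpc1*, *Mybpc2* and *Mybph* were tested and lay fully below in HFD-fed mice (9.23% of all tested genes). Their log2 fold changes were -5.84, -6.04 and -3.58. By edgeR, none of the heavy chain and binding protein genes was called. DESeq2 called 3 of each list lower, beside 1.53% of the genes to which it gave an adjusted p.

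**Figure D4:**
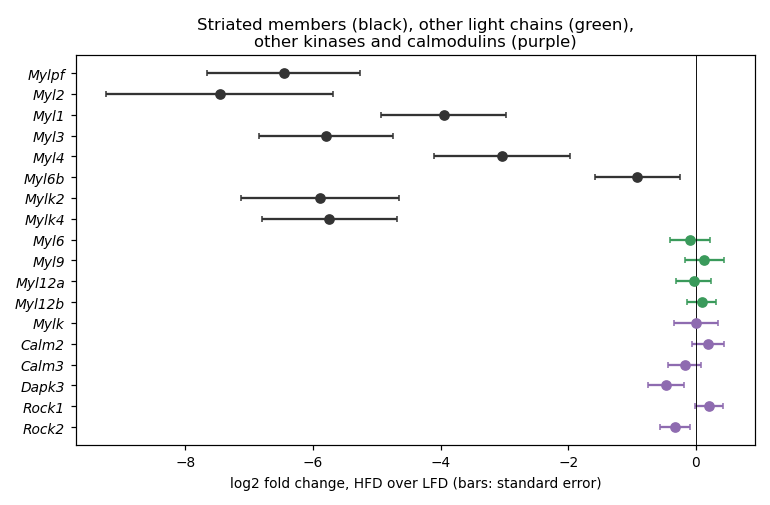
Log2 fold change (HFD over LFD) with its standard error for the 8 striated members (black), the other tested light chains (green) and other tested kinases and calmodulins (purple). The members range from -7.46 to -0.92, and the other genes lie between -0.46 and 0.20.

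**Figure D5:**
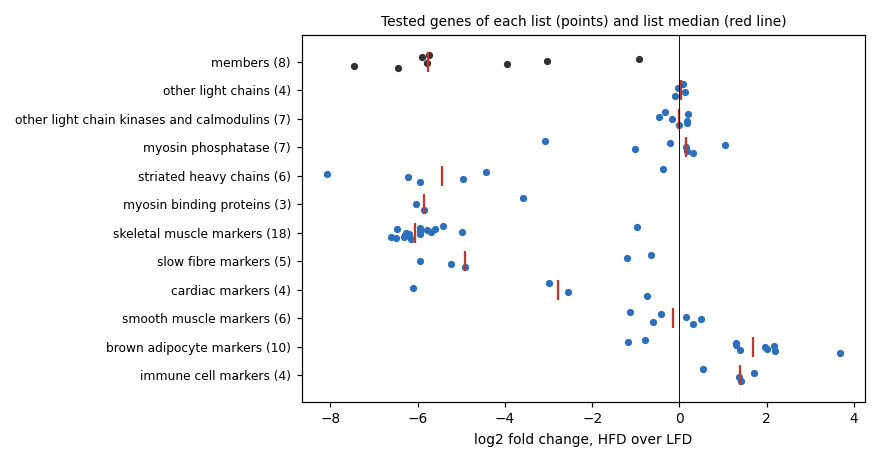
Log2 fold change of every tested gene in each list (points) with the list median (red line) and the number tested in parentheses. The medians of the members (-5.77), striated heavy chains (-5.45) and skeletal muscle markers (-6.05) lie far to the left, and those of the other light chains and kinases lie near 0.

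The genes most like the members over the 6 mice were looked up among 13782 tested genes with a mean log2 CPM of at least 1. By Pearson correlation of log2 CPM, *Mylk2* was nearest to *Pygm* (muscle glycogen phosphorylase), *Alpk3* and *Tnni2* (fast troponin I), with r from 0.998 to 1.000. *Mylpf* was nearest to *Trdn* (triadin), *Cacna1s* (the muscle calcium channel) and *Klhl31*, with r of 0.998 to 0.999. *Myl1* was nearest to *Sypl2*, *Irs1* and *Pkia*, with r of 0.996 to 0.999. The genes next to *Myl6b* (*Ppp1r9a*, *Insr* and *Gm11266*), *Myl4* (*C4b*, *Bmpr2* and *Ramp1*), *Myl2* (*Cdk11b*, *Stx16* and *Thap3*), *Myl3* (*Gas6*, *Mfsd4* and *Elk4*) and *Mylk4* (*D3Ertd254e*, *Asph* and *Neurl1a*) had r from 0.977 to 0.999. For the mean of the members, the nearest genes included *Plppr3*, *Pard3b*, *Coro2b*, *Nqo1*, *Sufu*, *3425401B19Rik*, *Syt15*, *Neb* and *Cacna2d1*, with r from 0.991 to 0.998. The 6 points share library depth and the diet difference, so these values are a description. Correlation also ignores the size of a difference. The genes nearest to *Mylpf* and *Mylk2* had log2 fold changes of -6.75 to -5.42. Those nearest to *Myl2* had -0.48 to -0.19, to *Myl3* -1.46 to -0.36 and to *Mylk4* -3.59 to -0.63. These 3 members themselves had -7.46, -5.79 and -5.74. The genes nearest to the mean of the members ranged from -5.83 to -0.52.

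Genes overlap the members on the opposite strand at 4 places, and the sources used here do not say whether strand was used in counting. *Pth1r*, which overlaps *Myl3*, had 201, 234 and 274 counts in HFD replicates 1, 2 and 3 and 1404, 550 and 278 in LFD replicates 1, 2 and 3. It was thus also lower in every HFD-fed mouse, and its part in the *Myl3* counts was not tested. *Ccdc63*, which overlaps *Myl2*, had 4 to 23 counts per mouse. The genes that overlap *Myl4* had at most 7 counts and the gene that overlaps *Mylk4* had 0.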

How the data were processed

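RNA from BAT of 3 HFD-fed and 3 LFD-fed mice was freed of ribosomal RNA, and single-end reads of 75 bases were taken. Per the submitters' processing notes and the methods of the study, the authors trimmed adapters with Trimmomatic 0.36 and quantified genes with RSEM 1.3.0 on GRCm38.p4 (Ensembl 84). The authors deposited expected counts, which are not normalized and split reads that match several genes, so counts of close copies are uncertain. The authors also deposited TPM values, scaled to 1000000 per mouse, and a transcript length per gene.

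Expected counts were rounded and tested over all genes with edgeR 4.0.16 in R 4.3.3 (quasi-likelihood, TMM, edgeR's low-count filter, Benjamini-Hochberg adjustment). DESeq2 1.42.0 was the alternative tool. The thresholds were an adjusted p of 0.01 and an absolute log2 fold change of 1.5. Log2 CPM used a prior count of 2. The scripts were tested on simulated data. Positions come from GENCODE M21 and promoter windows from RefSeq (GRCm38.p6).

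The members, the gene lists and the tests were chosen with earlier results of these data known. By rule the genes named are the members, up to 4 genes per list with the highest TPM, and the genes nearest by correlation (10 for the mean of the members and 3 for each member). Other genes named from a list were picked after their values were seen, and some genes that the rule names are not reported here. Same-numbered mice of the diets deviated together over genes, with r of 0.498, 0.229 and 0.522 for replicates 1, 2 and 3, so the numbers were also used as a block. Other pairs had r of -0.528 to 0.0532. Each diet was centred on its own mean, so the values of these pairs depend on those of the same-numbered pairs. No source used here says what a shared number marks. Between mice on the same diet, chi-square divided by its degrees of freedom was 71.7 to 558, far above sampling noise, so no library was a repeat. Alternatives were other size factors, filters, pseudocounts and prior counts, DESeq2, no mitochondrial genes, the replicate block and each mouse left out.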

Additional observations from a re-analysis of the deposited data

How the results depend on the processing

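The direction of the members did not depend on the processing. All 108 fold changes of members under the alternatives were negative, and 6 of them, all from DESeq2, passed both thresholds where edgeR's main values did not. DESeq2 with default settings called 412 genes in the whole table, 6 members and 7 related genes, where edgeR's quasi-likelihood test called 0 of each. The median log2 fold change of the members, -5.77, was -3.54 as a difference of mean log2(TPM + 1), which shrinks genes with low TPM. With 1 mouse left out it ranged from -6.16 to -4.54, the latter without LFD replicate 2, and the number of calls stayed at 0 for all genes and for members (from 0 to 0). *Myl2* ranged from -9.72 (without HFD replicate 2) to -5.85 (without LFD replicate 2). *Myl4* ranged from -3.95 to -1.47, *Myl3* from -6.27 to -4.46, *Mylk4* from -6.27 to -4.62 and *Myl6b* from -1.36 to -0.60. Blocking on the replicate number left 0 genes, 0 members and 0 related genes called, so the replicate block changed no call. The block did lower the standard error of every member, for *Mylpf* and *Mylk2* from 1.20 and 1.24 to 0.28 and 0.34. The blocked log2 fold changes of *Mylpf* and *Mylk2* were -6.60 and -6.06, each at an adjusted p of 0.0102 in edgeR, against 0.173 and 0.178 without the block. With the block in edgeR, *Myl1* and *Myl2* had adjusted p-values of 0.0279 and 0.0382. *Myl3*, *Myl4*, *Myl6b* and *Mylk4* had 0.0636 to 0.331. The count of 7 members with no overlap was 6 with RLE size factors and 7 without normalization factors, with a prior count of 0.5 and in TPM. In TPM, 11.6% of all tested genes lay fully below in HFD-fed mice. A minimum of 10 counts in every mouse left 4 members. The share of *Mylpf* among regulatory chains was computed from counts as well, chosen after seeing the data, and moved by less than the spread between mice. Members with fewer than 10 counts in an HFD-fed mouse (*Myl2*, *Myl3*, *Myl4* and *Mylk2*) have a fold change limited by depth.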
